A study of Homo sapiens with 9 samples.

Results

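A set of 33 genes of glucose uptake, glycolysis and the pentose phosphate pathway was followed in H295R cells, a steroid-producing human line derived from adrenocortical carcinoma. The genes were chosen by symbol, with earlier results of these data known. They were looked up by their Ensembl identifiers among the 60671 genes of the deposited count tables. All 33 were found, and 32 passed the filter on low counts, as did 14150 genes in all. SLC16A3, the exporter of lactate from strongly glycolytic cells, did not pass: it had 9, 6 and 6 reads in the KO libraries, 0, 0 and 3 in the OE libraries, and 6, 0 and 9 in the WT libraries. RNA was sequenced from 3 groups of 3 untreated libraries: cells labelled as a knockout of SGPL1 (KO), cells labelled as overexpressing SGPL1 (OE), and wild-type cells (WT). SGPL1 encodes sphingosine-1-phosphate lyase, which ends the breakdown of sphingolipids. All groups share the H295R background and were grown to near confluence in 6-well plates. The sources used here give neither the site and kind of the edit, nor the overexpression construct and its promoter, nor whether each line is a single clone. The design text calls the libraries biological replicates, but not whether they came from separate cultures. The p-values then cover only the variation among these libraries, which may be technical.

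Glucose enters cells through the SLC2A carriers and is trapped by hexokinase. Glycolysis splits it into pyruvate, with phosphofructokinase as its main control point, and pyruvate is either reduced to lactate and exported or carried into mitochondria and oxidised. The pentose phosphate pathway branches off after the hexokinase step, makes NADPH and ribose, and returns carbon to glycolysis through transketolase and transaldolase. Adrenocortical cells spend NADPH on cholesterol and steroid hydroxylation. Most steps are served by several isoenzymes from separate genes, and many of these genes are classical targets of the hypoxia-inducible factors.

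Library totals lay between 8006873 and 10895080 counts. Levels are given in CPM, the usual count relative to a library's total after TMM scaling, and those of different genes are compared only as CPM per kilobase of exon. Calls rest on edgeR's quasi-likelihood test over all genes that passed the filter, with 0.05 as the limit for the adjusted p. SGPL1 itself lay at 43.8 to 53.7 CPM in KO cells, 81.1 to 101 CPM in OE cells and 83.2 to 101 CPM in WT cells. Its log2 fold change was -0.97 ± 0.14 (SE) in KO against WT cells (adjusted p = 0.000105) and -0.01 ± 0.14 in OE against WT cells (adjusted p = 0.966). The OE label is thus not matched by higher SGPL1 counts, and every OE result below is about the libraries labelled OE. All 12 adrenocortical markers passed the filter, and their summed level was 7432 to 9349 CPM in KO cells, 5647 to 6681 CPM in OE cells and 4509.8 to 5158 CPM in WT cells. DLK1 alone gave 4917 to 6290 CPM of this in KO, 2871 to 3267 CPM in OE and 2465 to 2818 CPM in WT cells, and the other 11 markers summed to 2515 to 3059 CPM in KO, 2777 to 3414 CPM in OE and 2045 to 2341 CPM in WT cells. Its part in the results below was not tested. Of the fibroblast, leukocyte, endothelial and epithelial markers, 2 of 6, 1 of 6, 0 of 5 and 1 of 5 passed. The highest count of any marker in any library was 126 for fibroblasts, 26 for leukocytes, 4 for endothelium and 293 for epithelium, and the summed epithelial level was 10.5 to 12.9 CPM in KO cells, 27.5 to 31.9 CPM in OE cells and 23.8 to 28.3 CPM in WT cells. In bulk RNA, a change in the share of cells that express a gene and a change per cell cannot be told apart.

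In KO cells, RNA of glucose uptake, glycolysis and lactate export was higher than in WT cells at most of the steps where it differed. Of the 32 genes tested, 15 were higher and 2 were lower, 46.9% and 6.25%, where the background over all 14150 genes was 9.16% higher and 9.6% lower. The members' median log2 fold change was 0.36, against -0.007 over all genes tested. Since the members were chosen with earlier results known, these shares and those below describe the list and do not test it. The higher genes were SLC2A3, HK2, GPI, PFKFB3, ALDOA, ALDOC, TPI1, GAPDH, PGK1, PKM, LDHA, SLC16A1, PDK1, PDK3 and MPC2, and the lower ones PFKL and TALDO1. In the libraries labelled OE, 9 members were higher than in WT cells and 2 were lower, 28.1% and 6.25%, against a background of 9.65% and 11%, with a members' median of 0.19 against -0.010 over all genes. Here the higher genes were GAPDH, ENO1, PKM, LDHA, LDHB, MPC1, MPC2, TKT and TALDO1, and the lower ones SLC2A1 and H6PD. The groups did not overlap for 19 members in KO against WT and for 15 in OE against WT, where 35.2% and 36.4% of all genes did not overlap. Both comparisons use the same WT libraries. Without WT replicate 1 the OE count of higher members was 5, and without WT replicate 3 it was 4. The members together took 1.99%, 1.93% and 1.67% of all counts in KO libraries, 1.57%, 1.73% and 1.6% in OE libraries, and 1.4%, 1.5% and 1.25% in WT libraries. The 3 KO and 3 OE libraries thus all lay above the highest WT library, and PKM alone made up 0.617% to 0.756% of KO, 0.538% to 0.604% of OE and 0.406% to 0.519% of WT counts.

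**Figure D1:**
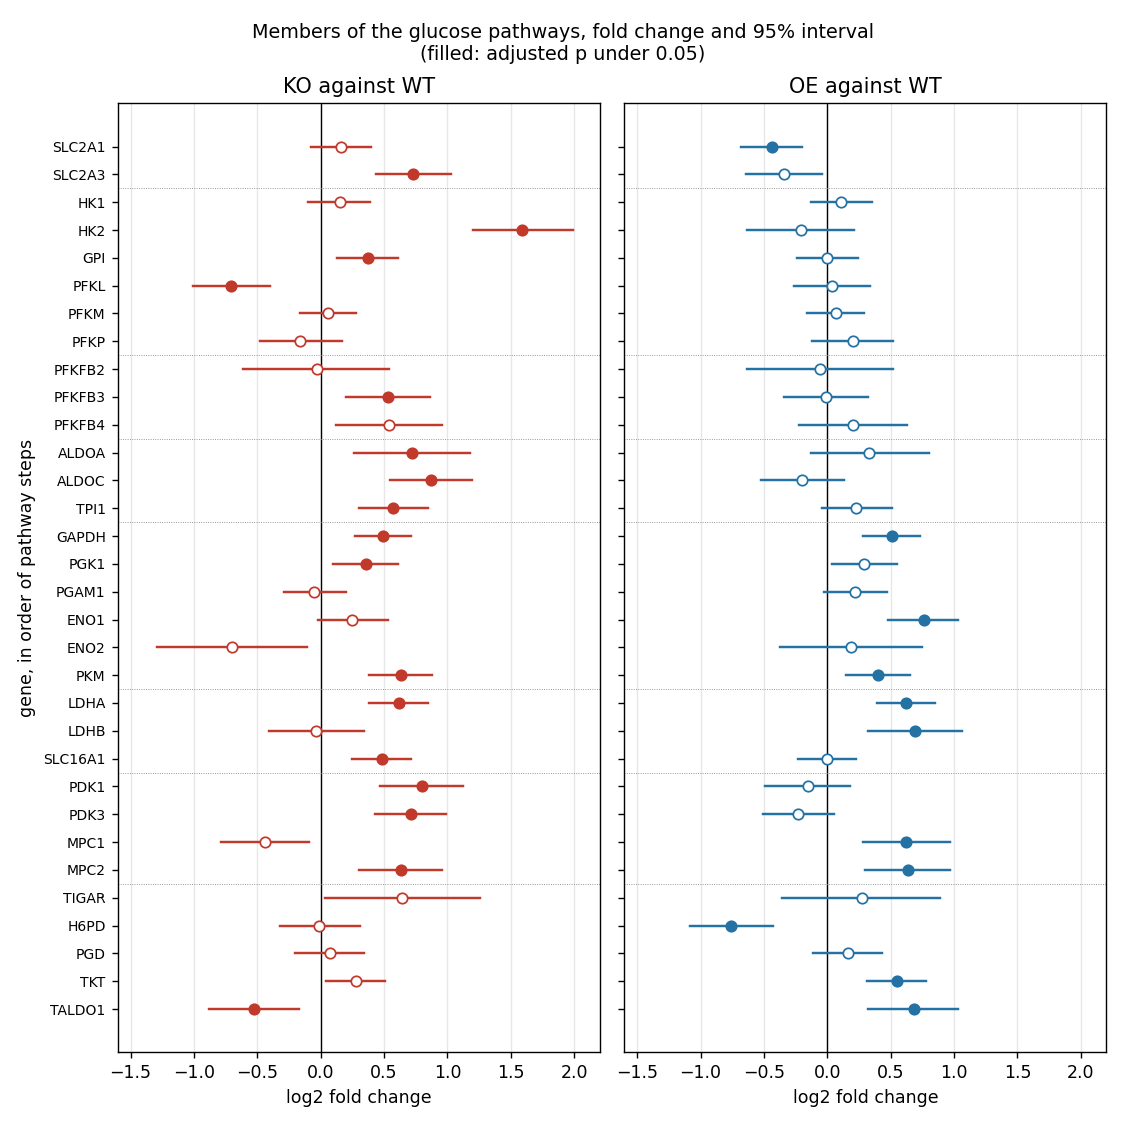
Log2 fold change of each member, in pathway order from glucose uptake to the pentose phosphate pathway, in KO against WT and in OE against WT. Points are edgeR estimates, bars are 95% intervals computed from the F statistic of the test, and filled points passed an adjusted p of 0.05. HK2 stands farthest to the right in KO cells at 1.59, while the upper glycolytic genes of the OE libraries lie around 0.

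Sequences just upstream of the transcription start are shown for 4 members that were higher in KO cells at different steps: HK2, the inducible hexokinase, ALDOC, an aldolase, LDHA, which makes lactate, and PDK3, a kinase that shuts pyruvate dehydrogenase. They are the 250 bases before the start in RefSeq's GRCh38.p14 annotation, at chr2:74833877-74834126 (plus strand), chr17:28576896-28577145 (minus strand), chr11:18394313-18394562 (plus strand) and chrX:24465036-24465285 (plus strand). Capitals mark matches to ACGTG or, on the other strand, CACGT, a form of the core of the hypoxia response element, and a CACGTG, the E-box, holds both. Other forms of the core were not searched.
HK2: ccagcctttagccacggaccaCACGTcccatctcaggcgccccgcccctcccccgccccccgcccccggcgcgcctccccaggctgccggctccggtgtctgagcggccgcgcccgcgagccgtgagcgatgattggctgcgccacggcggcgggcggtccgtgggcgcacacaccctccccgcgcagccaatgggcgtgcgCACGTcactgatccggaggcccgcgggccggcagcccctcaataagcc
ALDOC: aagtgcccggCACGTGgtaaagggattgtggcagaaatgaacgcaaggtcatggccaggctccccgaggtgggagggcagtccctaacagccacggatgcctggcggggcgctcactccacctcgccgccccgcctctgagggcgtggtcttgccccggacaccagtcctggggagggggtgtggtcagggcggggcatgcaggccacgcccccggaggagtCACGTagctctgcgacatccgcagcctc
LDHA: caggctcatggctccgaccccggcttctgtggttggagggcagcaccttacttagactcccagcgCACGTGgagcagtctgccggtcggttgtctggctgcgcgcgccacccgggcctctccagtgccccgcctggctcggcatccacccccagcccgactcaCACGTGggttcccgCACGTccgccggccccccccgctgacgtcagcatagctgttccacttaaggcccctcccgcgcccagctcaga
PDK3: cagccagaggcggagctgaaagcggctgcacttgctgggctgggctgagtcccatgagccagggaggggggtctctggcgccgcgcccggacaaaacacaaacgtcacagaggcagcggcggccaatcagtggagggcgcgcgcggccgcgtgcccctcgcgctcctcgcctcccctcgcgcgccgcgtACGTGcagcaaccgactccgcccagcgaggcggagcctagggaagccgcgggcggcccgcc
The sequences have 2, 3, 5 and 1 matches in that order, each strand of an E-box counted. All 4 sequences shown hold the motif, so they do not stand for every member higher in KO cells, some of which lacked it (below). The motif was chosen after the calls were known, so its counts are a description. Over RefSeq windows running from 250 bases before to 50 bases after each start, it was found in at least 1 window of 6790 of 27305 genes, 24.9%. Among the members, 30 had a window, and 17 of these held the motif, 56.7%. It was found in 11 of the 13 members with a window that were higher in KO cells, in 0 of the 5 that were higher in the OE libraries and not in KO cells, and in 6 of the other 12. Genes with several start sites have several windows and more chances of a match. Among the members higher in KO cells, PFKFB3, TPI1 and PDK1 lacked the motif in the first window listed and held it only in a later one. The same held for PFKM, PFKP and SLC16A3 among the other members. PKM and MPC2, also higher in KO cells, had no match in any window. In the first window listed per member, 11 of 30 held it, 36.7%, against 21.4% of all 35116 windows, and the E-box CACGTG was found in 3 of 30 members, against 7.3% of windows. These backgrounds count every window, several for some genes, and a background of 1 window per gene was not computed. A match shows only these letters, and no binding was measured.

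Of the 2 glucose carriers in the set, SLC2A3 was higher in KO cells and SLC2A1 was lower in OE cells, each against WT cells. SLC2A3, a high-affinity glucose carrier, stood at 66.4, 60.4 and 72 CPM in KO cells, at 32.5, 35.3 and 27.1 CPM in OE cells, and at 39.2, 40.6 and 39.9 CPM in WT cells. The KO libraries lay above all others. Its log2 fold change in KO against WT cells was 0.73 ± 0.14 (adjusted p = 0.00137), and in OE against WT cells it was -0.34 ± 0.14 (adjusted p = 0.103). SLC2A1, the basal glucose carrier of most cell lines, had 236, 249 and 222 CPM in KO cells, 171, 143 and 153 CPM in OE cells, and 229, 202 and 201 CPM in WT cells, so that the OE libraries were the lowest. The log2 fold change in OE against WT cells was -0.44 ± 0.11 (adjusted p = 0.0128), and it missed the threshold without WT replicate 1 (adjusted p = 0.0785). In KO against WT cells SLC2A1 was not called (0.16 ± 0.11, adjusted p = 0.363). Per kilobase, SLC2A1 exceeded SLC2A3 in each group's mean, at 35.6 against 10.9 CPM per kb in KO cells, 23.5 against 5.21 in OE cells and 31.9 against 6.57 in WT cells.

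HK2, at chr2:74834127-74893359, had the largest log2 fold change of the 32 members tested in KO against WT cells. Hexokinase traps glucose in the cell, and HK2 is its inducible form, while HK1 is the constitutive one. HK2 had 23.5, 27.4 and 27.4 CPM in KO cells, 7.9, 5.93 and 8.35 CPM in OE cells, and 9.7, 8.05 and 8.15 CPM in WT cells. The lowest KO library was above the highest of the other 6, and the fold was 3.02 in KO against WT cells (log2 1.59 ± 0.19, adjusted p = 1.5e-05). In OE against WT cells HK2 was not called (log2 -0.21 ± 0.20, adjusted p = 0.48). HK1 had 127 to 146 CPM in KO cells, 130.1 to 139 CPM in OE cells and 115 to 136 CPM in WT cells, with 95% intervals of -0.10 to 0.39 in KO and -0.13 to 0.35 in OE against WT cells. Per kilobase, HK1 remained the more abundant hexokinase in each group. HK2 made up 14.9%, 16.7% and 18.7% of the summed HK1 and HK2 level in KO cells, 5.77%, 4.63% and 6.01% in OE cells, and 7.05%, 6.94% and 6.46% in WT cells.

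GPI, which turns glucose phosphate into fructose phosphate, had 907, 942 and 765 CPM in KO cells, 614, 757 and 648 CPM in OE cells, and 703, 680.1 and 637 CPM in WT cells. The KO libraries were the highest, with a log2 fold change of 0.37 ± 0.11 against WT cells (adjusted p = 0.0288), and GPI was not called in OE against WT cells. The KO call was lost without KO replicate 1 or 2, without WT replicate 1 or 3, with upper-quartile scaling, and after a correction for gene length (adjusted p = 0.0839).

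At phosphofructokinase, the committed step, 1 of 3 subunit genes was called, and it was lower in KO cells. PFKL, the liver-type subunit gene at chr21:44300051-44327376, had 64.7, 64.7 and 48.7 CPM in KO cells, 98.6, 112 and 88.8 CPM in OE cells, and 101, 103 and 86.8 CPM in WT cells. All 3 KO libraries were below all others, and the log2 fold change in KO against WT cells was -0.71 ± 0.14 (adjusted p = 0.00223). The muscle-type subunit PFKM was at 193 to 201 CPM in KO cells, 188 to 201 CPM in OE cells and 174 to 201 CPM in WT cells, and the platelet-type subunit PFKP at 31.5 to 43.8, 47.1 to 53.1 and 39 to 48.3 CPM in the same order. Neither was called against WT cells. PFKL therefore made up 16.9%, 17.7% and 14.4% of the phosphofructokinase level per kilobase in KO cells, 23.4%, 26.2% and 21.6% in OE cells, and 25.7%, 24.7% and 22.8% in WT cells. PFKM was the main form in each group, at means of 66.7% in KO, 57.5% in OE and 58.2% in WT cells.

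The PFKFB enzymes make and break fructose-2,6-bisphosphate, which activates phosphofructokinase, and PFKFB3 is the form with the strongest kinase activity. PFKFB3 had 32.9, 39.6 and 38.3 CPM in KO cells, 28, 21 and 27.1 CPM in OE cells, and 25, 26 and 25.7 CPM in WT cells. It was higher in KO against WT cells by 0.53 ± 0.15 on the log2 scale (adjusted p = 0.0234). That call was lost without KO replicate 2 or 3, without WT replicate 1 or 3, and with scaling by library totals alone. PFKFB4 had the like estimate of 0.54 ± 0.20 and was not called (adjusted p = 0.0687, or 0.0236 without KO replicate 3), with 19.2, 26.5 and 15.3 CPM in KO cells against 14.1, 15.4 and 12.5 CPM in WT cells. PFKFB2 was low, at 5.72 to 9.5 CPM in KO cells, 4.83 to 8.92 CPM in OE cells and 6.1 to 8.03 CPM in WT cells, and was not called.

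Aldolase splits the six-carbon sugar, and both aldolase genes were higher in KO than in WT cells. ALDOC had 168, 177 and 134 CPM in KO cells, 70.5, 93.3 and 65.5 CPM in OE cells, and 89.5, 95.4 and 77.2 CPM in WT cells. Its log2 fold change was 0.87 ± 0.15 in KO against WT cells (adjusted p = 0.000612), with KO libraries above all others. ALDOA had 9.91, 11.5 and 8.22 CPM in KO cells, 7.13, 7.59 and 7.98 CPM in OE cells, and 6.21, 5.61 and 6.2 CPM in WT cells, with a log2 fold change of 0.72 ± 0.22 in KO against WT cells (adjusted p = 0.0289). The ALDOA counts are partial: 2095 of its 3829 exon bases, 54.7%, are shared with other annotated genes, and reads there were not assigned to any gene. Its level therefore cannot be set against ALDOC, and its call was lost in DESeq2 (adjusted p = 0.0533), without KO replicate 1 or 2 and without any 1 of the WT replicates. TPI1, which interconverts the triose phosphates, had 3101, 2941 and 2498 CPM in KO cells, 2021, 2631 and 2093 CPM in OE cells, and 1937, 2198 and 1604 CPM in WT cells, and was higher in KO against WT cells by 0.57 ± 0.13 (adjusted p = 0.00534).

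**Figure D2:**
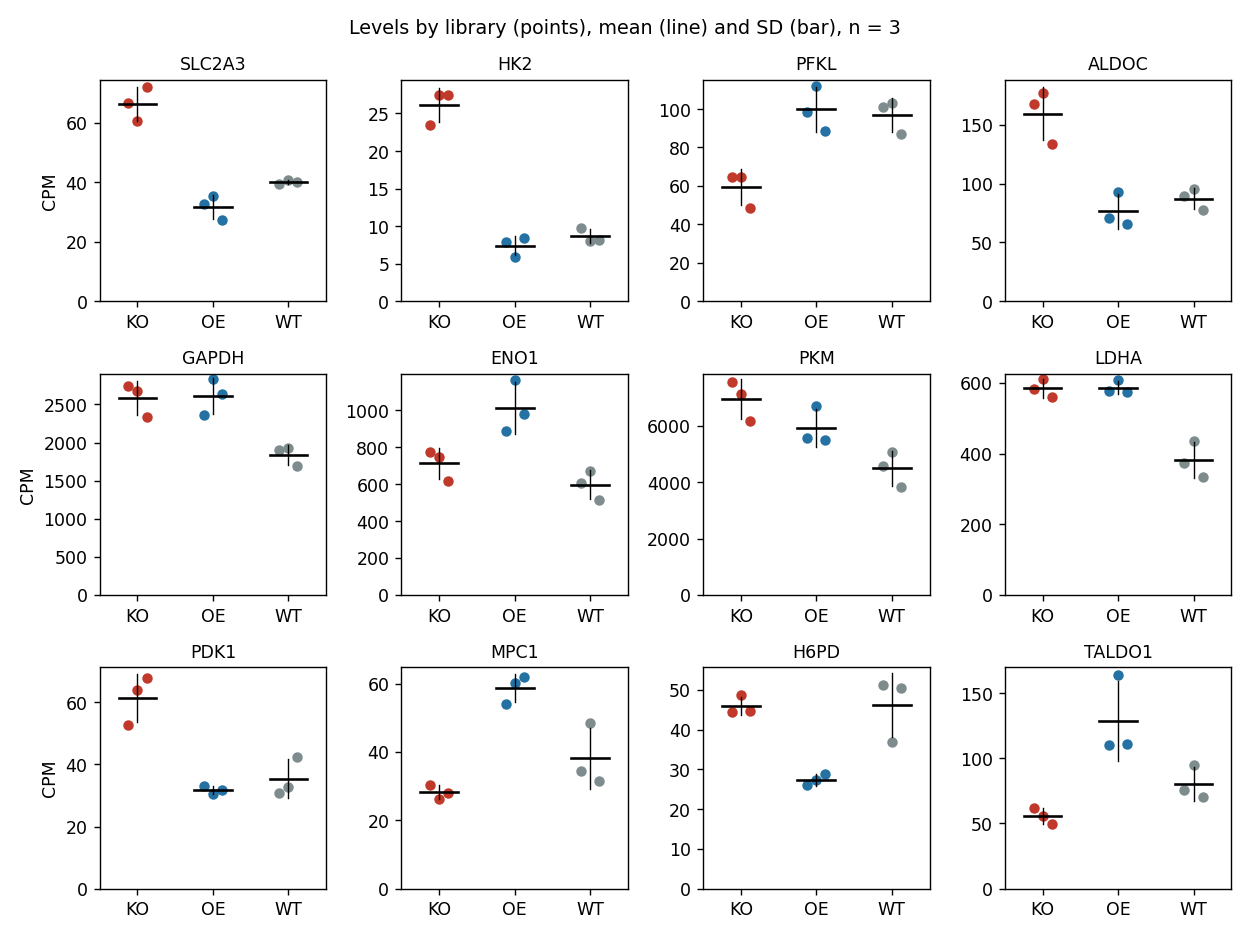
Level of selected members in each library, in CPM after TMM scaling from 0 up, with KO, OE and WT from left to right. Points are libraries, lines are group means and bars are SDs (n = 3), and the KO points of HK2 lie at 23.5 to 27.4 CPM, above the OE and WT points, and the KO points of PFKL at 48.7 to 64.7 CPM lie below them.

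Of 6 members of lower glycolysis, from GAPDH to pyruvate kinase, 3 were higher and 0 lower in KO cells, and likewise 3 and 0 in OE cells, each against WT cells, where the background of higher genes was 9.16% and 9.65%. GAPDH, the first oxidation step, had 2748, 2672 and 2337 CPM in KO cells, 2361, 2831 and 2639 CPM in OE cells, and 1897, 1927 and 1690.3 CPM in WT cells. Its log2 fold changes were 0.49 ± 0.10 in KO (adjusted p = 0.00302) and 0.51 ± 0.10 in OE (adjusted p = 0.00388) against WT cells, and no WT library reached the lowest of the other 6. PKM, pyruvate kinase, had 7541, 7143 and 6155 CPM in KO cells, 5564, 6687 and 5502 CPM in OE cells, and 4569.5, 5075 and 3815 CPM in WT cells. It was higher by 0.63 ± 0.12 in KO (adjusted p = 0.00125) and by 0.40 ± 0.12 in OE (adjusted p = 0.0263). The OE call of PKM was lost without WT replicate 1, WT replicate 3 or OE replicate 2, with library totals alone and with only the OE and WT libraries in the fit. After the length correction its OE value was 0.64 (adjusted p = 0.00322). The counts are per gene and do not tell the PKM1 and PKM2 splice forms apart.

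ENO1, the main enolase, was called in the OE libraries and not in KO cells. It had 774, 746 and 618 CPM in KO cells, 891, 1167 and 979 CPM in OE cells, and 605, 673 and 516 CPM in WT cells, with log2 fold changes of 0.25 (adjusted p = 0.196) in KO and 0.76 ± 0.13 (adjusted p = 0.00121) in OE against WT cells. The difference between the lines was itself called, 0.51 ± 0.13 in OE against KO cells (adjusted p = 0.00541). ENO2, the neuronal enolase, was low, with 5.13, 7.12 and 2.99 CPM in KO cells, 9.87, 10.6 and 7.88 CPM in OE cells, and 9.03, 7.93 and 7.8 CPM in WT cells. It was called in OE against KO cells (0.89 ± 0.28, adjusted p = 0.0169), a call lost without KO replicate 3 (adjusted p = 0.0845). Against WT cells it was not called in KO cells (-0.70 ± 0.28, adjusted p = 0.0922), but without KO replicate 2 it was, at -1.03 (adjusted p = 0.0344). PGK1, the first ATP-making step, had 847, 846 and 731 CPM in KO cells, 733, 853 and 733 CPM in OE cells, and 597, 742 and 556 CPM in WT cells, and passed narrowly in KO against WT cells (0.36 ± 0.12, adjusted p = 0.0499). It was lost under 9 alternative settings, among them without WT replicate 1 (adjusted p = 0.175). In OE against WT cells PGK1 was not called (0.29 ± 0.12, adjusted p = 0.098), but without WT replicate 2 it was, at 0.43 (adjusted p = 0.0107). PGAM1 was at 398 to 470.2 CPM in KO, 498 to 569 CPM in OE and 387 to 499.5 CPM in WT cells and was not called.

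Lactate is made by tetramers of the LDHA and LDHB subunits and leaves through SLC16A1. LDHA had 583, 612 and 559 CPM in KO cells, 577, 608 and 574 CPM in OE cells, and 374, 435 and 334 CPM in WT cells. The KO and OE libraries lay above all WT libraries, with log2 fold changes of 0.62 ± 0.11 in KO (adjusted p = 0.000751) and 0.62 ± 0.11 in OE (adjusted p = 0.00151) against WT cells. LDHB had 75.3, 73.2 and 70.3 CPM in KO cells, 94.8, 159.5 and 108 CPM in OE cells, and 65.6, 90.7 and 68.3 CPM in WT cells. It was higher in OE against WT cells by 0.69 ± 0.18 (adjusted p = 0.0122), with OE replicate 2 far above the others, and its value was 0.45 without that library (adjusted p = 0.0514). In KO cells LDHB was not called (-0.04, adjusted p = 0.919). LDHA thus made up 79.3%, 80.5% and 79.7% of the lactate dehydrogenase level per kilobase in KO cells, 75.1%, 65.3% and 72.4% in OE cells, and 73.8%, 70.3% and 70.7% in WT cells, with 33.4% of LDHB's exon length shared with another gene. SLC16A1, which carries lactate out of the cell, had 233, 275 and 259 CPM in KO cells, 179.8, 171 and 199.9 CPM in OE cells, and 187, 179.7 and 184 CPM in WT cells. It was higher in KO against WT cells by 0.48 ± 0.11 (adjusted p = 0.00535) and had an estimate of 0.00 in OE against WT cells. With SLC16A3 near 0, SLC16A1 gave at least 99.7% of the pair's level per kilobase in each library. The pair leaves out SLC16A7, a further monocarboxylate carrier outside the set. SLC16A7 had means of 3.38, 2.84 and 2.72 CPM per kb in KO, OE and WT cells, against 49.6, 35.6 and 35.6 for SLC16A1.

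Of 4 members that govern the entry of pyruvate into mitochondrial oxidation, 3 were higher in KO cells and 2 in OE cells, each against WT cells, beside the same backgrounds of 9.16% and 9.65%. The kinases PDK1 and PDK3 inhibit pyruvate dehydrogenase by phosphorylation. PDK1 had 52.8, 63.9 and 67.8 CPM in KO cells, 33, 30.6 and 31.7 CPM in OE cells, and 30.8, 32.9 and 42.5 CPM in WT cells, and was higher in KO against WT cells by 0.80 ± 0.15 (adjusted p = 0.00147). PDK3 had 70.6, 68 and 70.4 CPM in KO cells, 38.8, 36.3 and 34.1 CPM in OE cells, and 39.7, 41.5 and 46.6 CPM in WT cells, and was higher by 0.71 ± 0.13 (adjusted p = 0.000957). Both stood above all OE and WT libraries in KO cells, and neither was called in OE against WT cells. Per kilobase, both were minor beside PDK4, a kinase outside the set. PDK4 had means of 297 CPM per kb in KO, 179 in OE and 220.3 in WT cells. In the same order, PDK1 had 4.14, 2.14 and 2.38, and PDK3 had 5.16, 2.7 and 3.15. MPC1 and MPC2 form the carrier that takes pyruvate through the inner membrane, and only as a pair. MPC2 had 49.2, 46.3 and 44.5 CPM in KO cells, 41.6, 56.2 and 43.4 CPM in OE cells, and 31.4, 33.7 and 25.5 CPM in WT cells, higher by 0.63 ± 0.16 in KO (adjusted p = 0.00976) and 0.64 ± 0.16 in OE (adjusted p = 0.0104, or 0.0646 without WT replicate 3). MPC1 had 30.4, 26.2 and 28 CPM in KO cells, 54, 60.3 and 61.9 CPM in OE cells, and 34.5, 48.4 and 31.6 CPM in WT cells. It was higher in OE against WT cells by 0.62 ± 0.16 (adjusted p = 0.0136, lost without WT replicate 1 or 3), and its -0.44 ± 0.17 in KO against WT cells was not called (adjusted p = 0.078, or 0.0379 without WT replicate 3). MPC1 made up 51.3%, 49.1% and 51.7% of the carrier's level per kilobase in KO cells, 68.9%, 64.7% and 70.9% in OE cells, and 65.3%, 71.1% and 67.9% in WT cells.

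Among the pentose phosphate members, TKT and TALDO1 were higher and H6PD was lower in OE than in WT cells, and TALDO1 was lower in KO than in WT cells. With 5 members and backgrounds of 9.16% higher and 9.6% lower in KO and of 9.65% and 11% in OE, the counts of 0 higher and 1 lower in KO and of 2 higher and 1 lower in OE say little about the group. TKT, transketolase, had 1071, 960.4 and 870.4 CPM in KO cells, 1062, 1308 and 1134 CPM in OE cells, and 822, 828 and 745 CPM in WT cells. It was higher in OE against WT cells by 0.55 ± 0.11 (adjusted p = 0.00344), and its 0.28 ± 0.11 in KO against WT cells was not called (adjusted p = 0.0966). TALDO1, transaldolase, at chr11:747415-765012, had 62, 55.5 and 49.6 CPM in KO cells, 110.3, 164 and 111 CPM in OE cells, and 75.5, 94.8 and 70.4 CPM in WT cells. It fell in KO against WT cells (-0.53 ± 0.17, adjusted p = 0.0374) and rose in OE against WT cells (0.68 ± 0.17, adjusted p = 0.01), and no KO library reached the lowest WT library. The KO call was lost without KO replicate 2 or 3 or WT replicate 1 or 2, and the OE call without WT replicate 1 or 3. H6PD, the endoplasmic reticulum enzyme that makes NADPH there, at chr1:9234774-9271337, had 44.5, 48.6 and 44.6 CPM in KO cells, 26, 27.2 and 28.8 CPM in OE cells, and 51.1, 36.8 and 50.5 CPM in WT cells. All OE libraries were below all others, with a log2 fold change of -0.76 ± 0.15 against WT cells (adjusted p = 0.00336). PGD, which makes NADPH by oxidising phosphogluconate, was at 124 to 145 CPM in KO, 130.0 to 167 CPM in OE and 118 to 133 CPM in WT cells and was not called. TIGAR, a phosphatase that lowers the activator of phosphofructokinase, was low at 6.18 to 9.07 CPM in KO, 4.69 to 6.48 CPM in OE and 3.54 to 6.54 CPM in WT cells and was not called (0.64 ± 0.29 in KO against WT cells, adjusted p = 0.14), although without WT replicate 3 it was, at 0.99 (adjusted p = 0.0397).

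Taken as deviations from each gene's mean over the 3 groups, levels trended with gene length, and the trend of the OE libraries ran below that of the others. The change in this log2 deviation per doubling of exon length was -0.074, -0.204 and -0.083 in OE replicates 1 to 3, against 0.042, 0.085 and 0.129 in KO replicates and 0.056, -0.053 and 0.102 in WT replicates. Each slope is thus relative to the other libraries. With a correction for this trend the OE values of H6PD, which is 9322 bases long, and of TKT were -0.47 (adjusted p = 0.02) and 0.83 (adjusted p = 0.00029) against WT cells, and TKT was then also called in OE against KO cells (0.59, adjusted p = 0.00161). The count of members higher in OE against WT cells was then 10 and lower 2. Over all genes the correction gave 1848 higher and 1179 lower, and scaling by library totals alone 765 higher and 2175 lower, against 1365 and 1559 in the main test.

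Set directly against each other, OE cells had less SLC2A3, HK2, ALDOC, PDK1 and PDK3 RNA and more PFKL, MPC1 and TALDO1 RNA than KO cells, while 15 of the 32 members were not called. Of the 32 members, 6 were higher in OE than in KO cells and 11 were lower, 18.8% and 34.4%, against a background of 19% and 20.6%. The members' share called higher was near the background and their share called lower above it, with a members' median of -0.05 against -0.004 over all genes. HK2 had a log2 fold change of -1.81 ± 0.19 in OE against KO cells (adjusted p = 3.16e-06), and SLC2A3 and ALDOC each had -1.07 (adjusted p = 3.03e-05 and 5.98e-05). PDK1 and PDK3 had -0.95 ± 0.16 and -0.94 ± 0.13 (adjusted p = 0.000186 and 4.93e-05), which became -0.48 and -0.50 after the length correction (adjusted p = 0.00835 and 0.00556), and SLC16A1 -0.48 ± 0.11 (adjusted p = 0.00267). H6PD had -0.75 ± 0.15 (adjusted p = 0.0011), or -0.44 after that correction (adjusted p = 0.0155), SLC2A1 -0.60 ± 0.11 (adjusted p = 0.000602) and PFKFB3 -0.54 ± 0.15 (adjusted p = 0.0109, lost without KO replicate 2 or OE replicate 2). GPI had -0.37 ± 0.11 (adjusted p = 0.0148), which became -0.01 (adjusted p = 0.975) after the length correction, and TPI1 -0.34 ± 0.13 (adjusted p = 0.0484), which was lost under 8 alternative settings and was -0.54 after the length correction (adjusted p = 0.000256). Higher in OE than in KO cells were TALDO1 at 1.20 ± 0.17 (adjusted p = 5.03e-05), MPC1 at 1.06 ± 0.16 (adjusted p = 0.000121), PFKL at 0.75 ± 0.14 (adjusted p = 0.000701) and LDHB at 0.72 ± 0.18 (adjusted p = 0.0037), beside ENO1 and ENO2. GAPDH, LDHA, MPC2 and PKM were called against WT cells in both lines. In OE against KO cells the first 3 had 0.01, 0.00 and 0.01, and PKM had -0.23 ± 0.12 (adjusted p = 0.134). PKM was called lower there under 4 alternative settings. After the length correction the values were -0.21 for GAPDH, 0.08 for LDHA, -0.20 for MPC2 and 0.04 for PKM, none of them called.

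**Figure D3:**
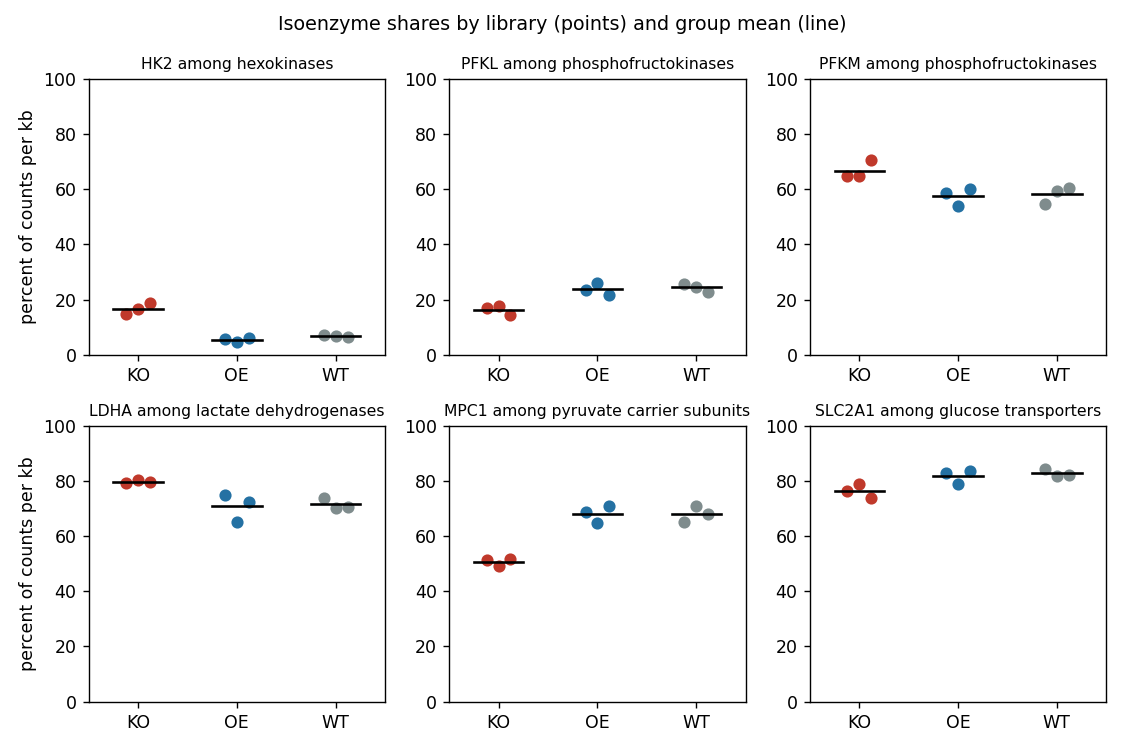
Share of an isoenzyme in the summed level of those genes of its family that are in the set, in percent of counts per kilobase, in each KO, OE and WT library. Points are libraries and lines are group means, and HK2 lies at 14.9% to 18.7% in KO libraries and at 4.63% to 7.05% in the others, and MPC1 at 49.1% to 51.7% in KO libraries and at 64.7% to 71.1% in the others.

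Shares within a family do not depend on library scaling. The families hold only genes of the set, so other expressed relatives are left out. SLC2A8 had means of 18, 19 and 12.9 CPM per kb in KO, OE and WT cells, above SLC2A3 at 10.9, 5.21 and 6.57. ENO3 had 5.48, 4.46 and 2.89, above ENO2 at 1.19, 2.21 and 1.93. Of 14 shares compared between KO and WT cells over 10 families, 7 did not overlap: SLC2A1, HK2, PFKL, PFKM, ENO2, LDHA and MPC1. The two-sided exact permutation test of 3 against 3 cannot go below 0.1, which each reached, and adjusted over the 14 shares p was 0.2. PFKL and PFKM belong to one family, so a lower share of one raises the others, and the 7 are not separate results. Of the levels of all genes tested, 35.2% did not overlap in KO and 36.4% in OE against WT cells. No such background was computed for shares. HK2's share differed by 9.91 percentage points in KO minus WT cells, LDHA's by 8.2, PFKM's by 8.47, PFKL's by -8.07 and MPC1's by -17.3. SLC2A1 made up 76.6%, 79.1% and 73.9% of the pair with SLC2A3 in KO cells, against 84.3%, 82% and 82.2% in WT cells. In OE against WT cells the shares of HK2, ALDOC and ENO2 did not overlap, at differences of -1.34, -1.94 and -0.537 points (exact permutation p = 0.1, adjusted 0.467). The ALDOC share rests on the partial ALDOA counts and differed by -3.41 points per kilobase of exon not shared with another gene, so its size is not known. Within the PDK1 and PDK3 pair, where both genes were higher in KO cells, the groups overlapped, with PDK1 at means of 44.4% in KO, 44.3% in OE and 42.9% in WT cells. The pair leaves out PDK4, the far more abundant kinase per kilobase, and PDK2. PDK2 had means of 5.61, 5.64 and 5.9 CPM per kb in KO, OE and WT cells, above PDK1 and PDK3 in each group. It was not called in KO or OE against WT cells (-0.07 in each), and 38.6% of its exon length is shared with another gene.

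Some members lie in stretches of chromosome where many tested genes were shifted in KO cells. Among the 25 tested genes on each side, the median log2 fold change in KO against WT cells was 0.59 around MPC2 on chromosome 1, 0.42 around ENO2 and 0.35 around TPI1, GAPDH and TIGAR on chromosome 12, and -0.47 around PFKL on chromosome 21. Of the 50 genes around PFKL, 38 were below 0. Around PKM the median was 0.27 and around SLC2A3 0.21. Around HK2, ALDOC, PDK1 and LDHA it was 0.02, -0.03, 0.03 and -0.01. Whether chromosome copy number differs between the lines was not tested. Without the 6 members whose neighbours moved by over 0.3, 12 of 26 were higher and 1 was lower in KO against WT cells, with a median of 0.32. In OE against KO cells the median of the neighbours was -0.56 around SLC2A3, -0.43 around PKM, -0.67 around MPC2, -0.47 around ENO2 and between -0.39 and -0.33 around TPI1, GAPDH, PGK1 and TIGAR. Without these 8 members, 5 of 24 were higher and 9 were lower in OE against KO cells. In OE against WT cells no member had neighbours beyond 0.3.

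**Figure D4:**
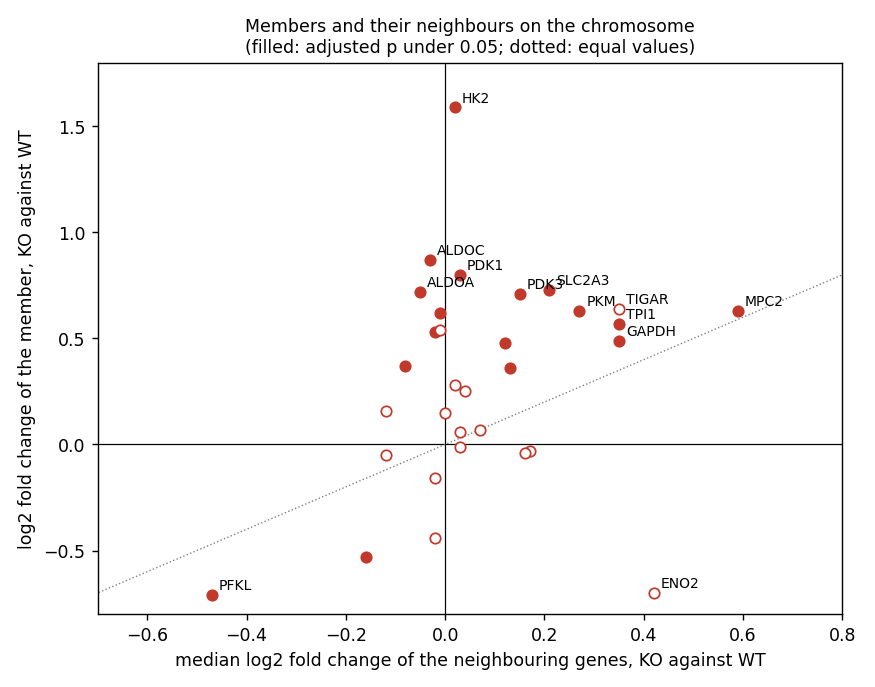
Log2 fold change of each member in KO against WT cells (vertical axis) against the median of its neighbouring tested genes on the chromosome (horizontal axis), with filled points for calls and a dotted line for equal values. HK2 lies at 1.59 with neighbours at 0.02, whereas PFKL lies at -0.71 with neighbours at -0.47 and MPC2 at 0.63 with neighbours at 0.59.

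Genes next to the set were read from further lists, each small and to be held against the same backgrounds, 9.16% higher and 9.6% lower in KO and 9.65% and 11% in OE against WT cells. Of 10 tested genes of other glucose and monocarboxylate transport, 0 were higher and 3 were lower in KO against WT cells: SLC2A10 (-0.49), SLC2A11 (-0.65) and BSG, the chaperone that brings SLC16A1 to the membrane. BSG had 913, 757 and 720.4 CPM in KO cells, against 1243, 1278 and 1091 CPM in WT cells (-0.60 ± 0.12, adjusted p = 0.00269), while its partner SLC16A1 was higher. SLC2A8, an intracellular carrier, was the 1 gene of that list higher in OE against WT cells (0.56 ± 0.17, adjusted p = 0.026). Of 6 other glycolytic isoenzymes, 2 were higher in KO cells, ENO3, the muscle enolase (0.93 ± 0.24, adjusted p = 0.011), and ADPGK, an ADP-dependent glucokinase (0.36 ± 0.10, adjusted p = 0.0225). ADPGK was also the 1 called in OE cells (0.34 ± 0.10, adjusted p = 0.0266), and BPGM was not called in either.

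The list of 10 genes of pyruvate dehydrogenase and its control had 2 higher in KO and 0 called in OE against WT cells. These were PDK4, a further inhibitory kinase, with 1205, 1308 and 1529.8 CPM in KO cells, 825, 735 and 877 CPM in OE cells, and 966, 939 and 1098 CPM in WT cells (0.43 ± 0.11, adjusted p = 0.0142), and PDP1, the phosphatase that reverses the kinases (0.67 ± 0.16, adjusted p = 0.00878). PDPR and PDHX were not called. Of 7 other pentose phosphate genes, 2 were lower in KO and 2 were higher in OE against WT cells. PRPS2, which makes phosphoribosyl pyrophosphate, was called in both, with 20.9, 20.7 and 23.4 CPM in KO cells, 41.9, 37.4 and 41.9 CPM in OE cells, and 30.5, 27.7 and 32.3 CPM in WT cells (-0.48 ± 0.15, adjusted p = 0.0294, and 0.42 ± 0.14, adjusted p = 0.0445). PRPS1 and RPE were not called.

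Of 11 genes of the hexosamine, serine, glycerol and sorbitol branches, 5 were higher and 0 lower in KO against WT cells. No gene of the serine branch was among those called. GPD2, the mitochondrial glycerol phosphate dehydrogenase, had 60.6, 69.6 and 84.6 CPM in KO cells, 25.7, 23.5 and 21.4 CPM in OE cells, and 24.1, 22.2 and 35.8 CPM in WT cells (1.39 ± 0.18, adjusted p = 5.19e-05). GPD1L, related to the cytosolic form of that enzyme, had 344, 374 and 411 CPM in KO cells, against 187, 188 and 196 CPM in WT cells (0.98 ± 0.12, adjusted p = 1.56e-05). UAP1 and SORD were among the others at 0.67 and 0.37, beside GFPT1 at 0.40, and SORD was the 1 gene of the list called in OE against WT cells (0.57 ± 0.12, adjusted p = 0.00482). Of 13 glycogen genes, 1 was higher and 1 lower in KO cells, 7.69% each and near the background: PGM2 (0.99 ± 0.16, adjusted p = 0.000323) and PYGL, glycogen phosphorylase (-0.66 ± 0.15, adjusted p = 0.0051). PHKA2 was the 1 called in OE cells (-0.64 ± 0.21, adjusted p = 0.0382). Of 4 gluconeogenesis genes, SLC37A4 alone was called, lower in KO cells (-0.53 ± 0.14, adjusted p = 0.014). Of 4 glucose-sensing genes, ARRDC4 was lower in KO cells (-0.70 ± 0.14, adjusted p = 0.00173) and MLX was higher in OE cells (0.39 ± 0.13, adjusted p = 0.0411). TXNIP, which restrains glucose uptake, was not called in either line, at -0.29 ± 0.11 in KO (adjusted p = 0.0794) and -0.30 ± 0.11 in OE against WT cells (adjusted p = 0.06).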

How the data were processed

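The members and the further lists were chosen with earlier results of these data known. The authors deposited raw read counts per gene. Per the file headers, these counts were made with featureCounts 1.5.2 on Ensembl release 101 (GRCh38) with only the annotation and output options, so that strand was ignored and reads mapping to several places or to more than 1 gene were left out. Genes with close copies, such as GAPDH with 65 named pseudogenes (0.325% of its own count) and TPI1 (1.57%), are therefore uncertain in level, and counts are partial where exons are shared with other genes (21.8% of exon length for MPC2, 19.4% for TIGAR, 17.6% for GAPDH and 11.3% for ALDOC, beside ALDOA and LDHB). The submitters' processing notes name FastQC, HISAT2 1.03, Subread, featureCounts 0.1.0 and DESeq2. Per the labels' protocols, RNA was poly-A selected and randomly primed.

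Symbols were found for 60401 identifiers. All 9 libraries were fitted together, with a group term, in edgeR 4.0.16 under R 4.3.3 (quasi-likelihood F test, TMM scaling, filterByExpr at its minimum of 10), with Benjamini-Hochberg adjustment over 14150 genes and calls at 0.05. The fit left 6 residual degrees of freedom, with a common biological coefficient of variation of 0.15 and a standard error of 0.187 for the median gene. Standard errors are not given by this test. They were computed as the absolute log2 fold change over the square root of F, and the 95% intervals were built from them. The fit was tested on simulated data with 200 changed genes. Library pairs within a group differed beyond sampling noise (chi-square per degree of freedom 4.48 to 17.79), so each was kept as 1 replicate. Isoenzyme shares are counts per kilobase of the deposited exon length, tested by exact permutation. The length correction used a spline with 4 degrees of freedom per library. DESeq2 1.42.0, limma 3.58.1, other scalings, a fit without the filter, a fit of 2 groups and leaving out libraries were the alternatives. All members are named, and of each further list up to 4 genes with the smallest adjusted p. Certain genes falling under that rule are not reported here.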

Additional observations from a re-analysis of the deposited data

How the results depend on the processing

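Under 19 alternative settings no called member changed direction. Leaving out 1 library at a time gave 11 to 16 members higher and 1 to 3 lower in KO against WT cells, 4 to 10 higher and 1 to 2 lower in OE against WT cells, and 5 to 8 higher and 8 to 11 lower in OE against KO cells. The single lower member of KO against WT cells came without KO replicate 3, WT replicate 1 or WT replicate 2, and the lowest OE against WT counts, 5 higher and 1 lower without WT replicate 1 and 4 higher without WT replicate 3. Without members whose neighbours had shifted by over 0.3, an alternative chosen after seeing the data, 1 member was lower in KO against WT cells. The replicate block gave 16 higher and 3 lower in KO against WT, 10 and 2 in OE against WT, and 9 and 12 in OE against KO cells. Same-numbered libraries correlated at -0.138 to 0.246 in their deviations from group means, and differently numbered ones at -0.281 to 0.224. Replicates 3 correlated at 0.134 to 0.172 across the groups, but not every same-numbered pair was over 0.1, so the numbers were not taken as pairs. Over the other settings the counts were 12 to 16 and 1 to 3 in KO against WT, 8 to 10 and 2 to 3 in OE against WT, and 5 to 9 and 9 to 12 in OE against KO cells. Scaling by library totals alone shifted the median of all genes by -0.118, to -0.128, in OE against WT cells and gave 8 higher and 3 lower members there. Single calls in KO against WT cells were kept in 292 cases and lost in 31, most for GPI, PFKFB3, ALDOA and PGK1. In OE against WT cells 195 were kept and 14 lost. The share of LDHA in KO minus WT cells was 5.28 points without division by length and 9.78 per kilobase of unshared exon. The causes were not tested.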
